A study of Mus musculus with 2 samples.

Results

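The 9 genes described here act in the synthesis, transport and binding of retinoic acid, out of 28693 genes listed for mouse pituitary cells. They are Aldh1a1, Aldh1a2, Aldh1a3, Crabp1, Crabp2, Rbp4, Dhrs3, Rarres2 and Stra6, matched by gene symbol, each with 1 entry in the files. They were measured in 2 libraries from 7-week-old male C57BL/6 mice, for which the labels name no allele and no agent, each library being 1 pool of 3 glands dispersed with enzymes for 4 h. Single cells were captured on the 10x Genomics Chromium with the 3' v2 kit, which counts transcripts near their 3' ends through a unique molecular identifier (UMI). There is no second condition, so every comparison is between classes of cells from the same glands, with the 2 pools as replicates.

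Retinoic acid is made from vitamin A in steps. Retinol circulates bound to the carrier encoded by Rbp4, dehydrogenases oxidise it to retinaldehyde, and the enzymes encoded by Aldh1a1, Aldh1a2 and Aldh1a3 oxidise retinaldehyde to retinoic acid in a step that is not reversed. Retinoic acid acts within the cell that makes it or on its neighbours, where the small binding proteins encoded by Crabp1 and Crabp2 carry it, nuclear receptors bind it to control genes, and CYP26 enzymes break it down. In the pituitary, Aldh1a enzymes are known from the developing gland and from marginal-zone cells lining the cleft of the adult one, which include its stem cells.

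The libraries held 70813117 and 78861988 UMIs, and 6011 and 6523 cells were used after filters, with a median depth of 10128 and 10636 UMIs per barcode before them. Cells were clustered on 97 marker genes, without any of 73 retinoid genes, so no level of these genes shaped the classes. Over the 55 pairs of classes, between 15.8% and 62.1% of all genes tested were called different, which is the background for any pair below. Each class name was then taken from its markers. There were 357 stem-like cells, and 6 of 7 stem markers were highest in them among 11 classes compared. The 151 fibroblast-like cells had all 8 fibroblast markers at their highest, and also 7 of 8 pericyte markers, so fibroblasts and pericytes were not told apart. The 53 pituicyte-like cells (posterior lobe glia) held 5 of 6 pituicyte markers at their highest, endothelial-like cells 8 of 8 and macrophage-like cells 8 of 8. Somatotrope-like, lactotrope-like, gonadotrope-like, corticotrope-like and melanotrope-like cells are the hormone classes, each named for the hormone cell whose markers it held. Thyrotrope-like cells numbered 10 and 33 and were too few to enter the comparison of classes, and 946 cells stayed unnamed. A total of 49 barcode sequences occurred in both libraries among the cells used.

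The genes lie on several chromosomes of mm10, in the GENCODE annotation, and all encode proteins. Aldh1a1 lies at chr19:20492715-20643465 and Rbp4 at chr19:38116629-38125281. Aldh1a2 lies at chr9:71215789-71296243, Crabp1 at chr9:54764748-54773110 and Stra6 at chr9:58063788-58153996. The remaining genes are Aldh1a3 at chr7:66390890-66427517, Crabp2 at chr3:87948666-87953376, Dhrs3 at chr4:144892827-144928209 and Rarres2 at chr6:48569696-48572789.

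Promoter letters are shown for Rarb and Cyp26a1, which respond to retinoic acid and carry its receptors' motif, and for Aldh1a1 and Aldh1a2, the members that stood highest in stem-like cells. The motif searched was a direct repeat of the half-site AGGTCA, the variant AGTTCA, the variant GGGTCA or the variant GGTTCA, with 1, 2 or 5 bases between the half-sites, on both strands. Each line gives the 250 bases before the gene's start on the gene's own strand, from RefSeq on GRCm38.p6, at chr14:16575477-16575726 (minus strand) for Rarb, chr19:37697558-37697807 for Cyp26a1, chr19:20601718-20601967 for Aldh1a1 and chr9:71215539-71215788 for Aldh1a2, all but Rarb on the plus strand. Capitals mark the direct repeat, or a lone half-site where there is no repeat.
Rarb: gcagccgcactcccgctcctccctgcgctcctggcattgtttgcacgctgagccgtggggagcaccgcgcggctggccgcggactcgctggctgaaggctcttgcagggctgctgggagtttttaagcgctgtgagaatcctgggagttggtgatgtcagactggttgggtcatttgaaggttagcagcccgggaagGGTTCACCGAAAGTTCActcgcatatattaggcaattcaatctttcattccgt
Cyp26a1: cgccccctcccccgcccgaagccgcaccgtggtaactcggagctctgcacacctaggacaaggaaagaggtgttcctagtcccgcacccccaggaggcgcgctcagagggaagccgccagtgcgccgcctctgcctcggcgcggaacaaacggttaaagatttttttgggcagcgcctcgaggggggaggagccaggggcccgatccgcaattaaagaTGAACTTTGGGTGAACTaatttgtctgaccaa
Aldh1a1: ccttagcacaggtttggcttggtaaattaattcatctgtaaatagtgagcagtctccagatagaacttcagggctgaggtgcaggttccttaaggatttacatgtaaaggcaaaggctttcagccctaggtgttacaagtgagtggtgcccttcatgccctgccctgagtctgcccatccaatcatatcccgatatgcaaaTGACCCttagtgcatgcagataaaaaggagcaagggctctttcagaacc
Aldh1a2: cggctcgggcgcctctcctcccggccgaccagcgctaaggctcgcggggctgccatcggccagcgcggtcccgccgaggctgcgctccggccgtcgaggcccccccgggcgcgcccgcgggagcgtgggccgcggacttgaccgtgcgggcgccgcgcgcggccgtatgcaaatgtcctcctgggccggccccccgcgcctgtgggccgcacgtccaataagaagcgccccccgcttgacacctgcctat
The Rarb repeat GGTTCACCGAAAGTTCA has a spacer of 5 bases and began at −53 from the start, and the Cyp26a1 repeat, on the opposite strand, also has a spacer of 5 bases and began at −32. For Aldh1a1 the second of its RefSeq starts is shown, which held 1 half-site. Aldh1a2 held none.

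Windows of 300 bases around the start (250 before, 50 after) were at hand for 6 of the 9 genes, 13 windows in all, and none held a direct repeat. A lone half-site was found in 3 of the 13, against 43.7% of 32851 windows of the same length. Repeats with a spacer of 5 were present in 0.097% of those windows, with a spacer of 2 in 0.268% and with a spacer of 1 in 0.222%. Of 50 other retinoid genes with a window, 3 held a repeat: Rarb, Cyp26a1 and Bco1, which encodes an enzyme that cleaves carotene. These are matches of letters in a window and say nothing of binding.

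**Figure D1:**
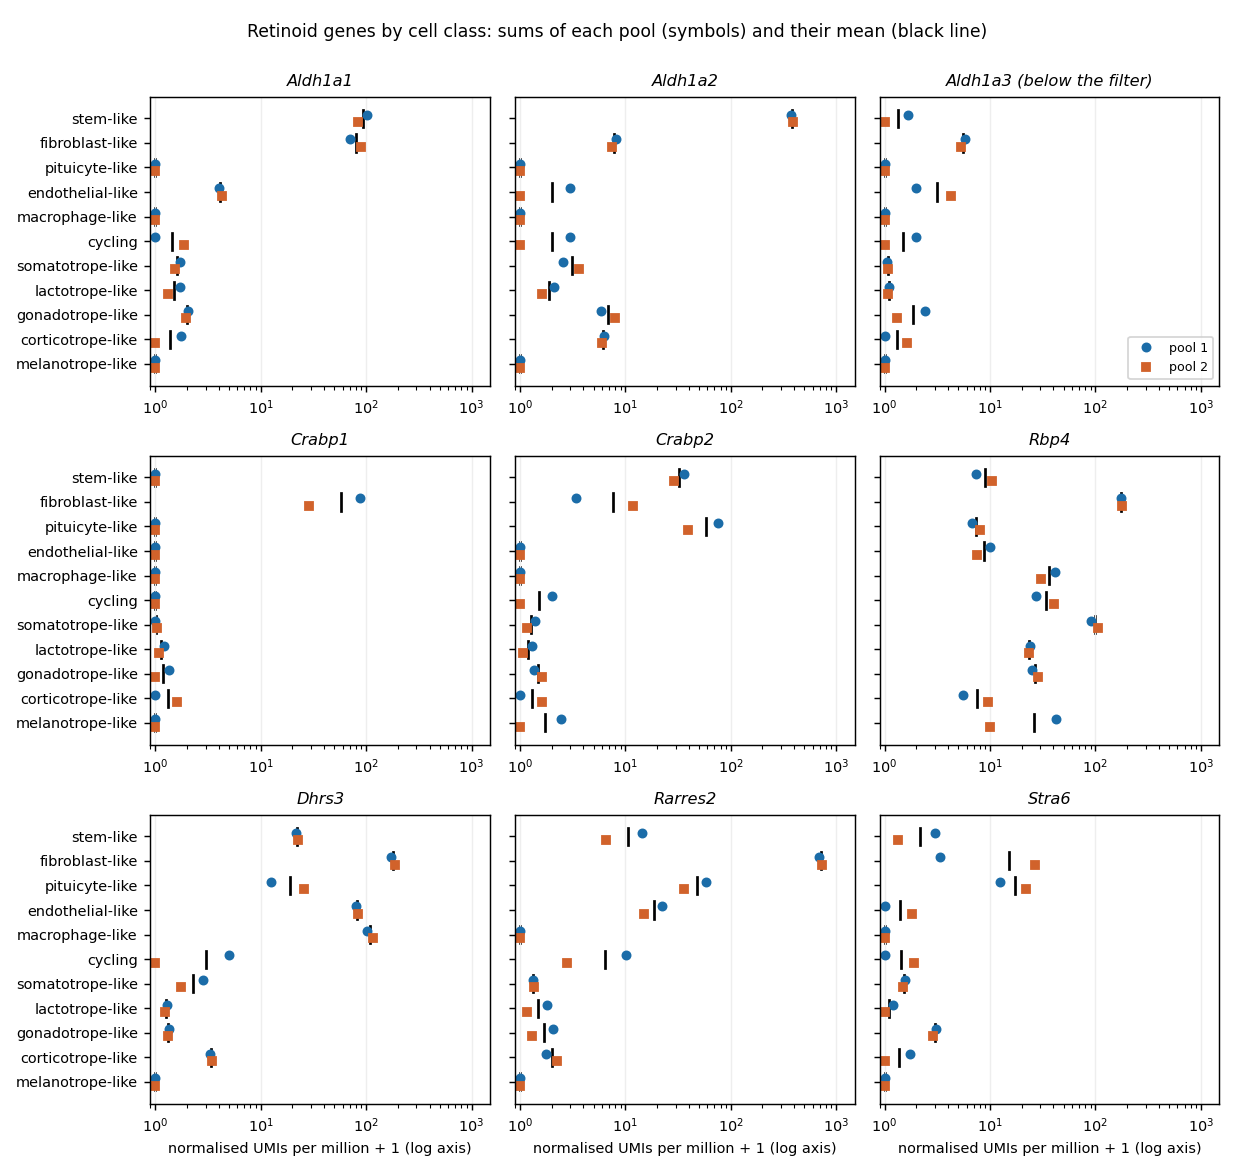
Level of each of the 9 genes (panels) in 11 cell classes (rows), as CPM (UMIs scaled to a normalised total of 1000000) plus 1 on a log axis, with a circle for pool 1, a square for pool 2 and a black line at their mean. Aldh1a2 stood at 370.3 and 390.0 in stem-like cells and at or under 7.17 in every other class of each pool, Rarres2 at 691 and 736 in fibroblast-like cells, while Dhrs3 was spread over fibroblast-like, macrophage-like and endothelial-like cells.

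Of the enzymes that make retinoic acid, Aldh1a2 was highest in stem-like cells. It stood at 370.3 and 390.0 CPM in them (UMIs scaled to a normalised total of 1000000, pool 1 and pool 2), from 1098 and 1114 UMIs. The next class, fibroblast-like cells, had 7.17 and 6.46 CPM. Both stem-like sums lay far above those of all other classes, and melanotrope-like, macrophage-like and pituicyte-like cells had no UMI. The mean in stem-like cells, 380.2 ± 13.9 CPM (SD, n = 2 pools), was 166-fold the mean of the other 10 classes and 55.8-fold that of fibroblast-like cells. Both differences passed edgeR's quasi-likelihood test (adjusted p = 7.58e-76 against the mean of the other classes, and adjusted p = 5.29e-33 against fibroblast-like cells). Stem-like cells were 2.85% of cells but held 92.2% of the Aldh1a2 UMIs.

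An Aldh1a2 UMI was found in 81.2% of stem-like cells of pool 1 (exact 95% binomial interval 74.8 to 86.6%) and in 92.0% of pool 2 (87.0 to 95.6%). With each cell thinned to 1000 UMIs, the shares expected over all possible draws were 34.3% and 42.0%. In melanotrope-like cells it was 0 of 238, which allows a share of up to 1.26%, at a median depth of 6621 UMIs against 9216 in stem-like cells. Such intervals and limits cover counting error only. Cells with a UMI held a median of 5.0 Aldh1a2 UMIs in pool 1 and 5.5 in pool 2, and the most in 1 cell was 49. The 5 richest cells held 7.96% of the class's Aldh1a2 UMIs, so the level did not rest on a few cells.

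Outside stem-like cells Aldh1a2 was low. Gonadotrope-like cells had 4.91 and 6.92 CPM and corticotrope-like cells 5.30 and 4.95 CPM, both called higher than the mean log level of the other classes, which include 3 classes at 0 (edgeR, adjusted p = 0.000356 and adjusted p = 0.0136). Of all genes tested, 26.4% were called higher in gonadotrope-like cells and 21.7% in corticotrope-like cells. In gonadotrope-like cells the 36 UMIs came from 19 of 535 cells, and 22 of them from 5 cells. In the order of levels, fibroblast-like against gonadotrope-like cells and gonadotrope-like against corticotrope-like cells were not called (edgeR, adjusted p = 0.862 and adjusted p = 0.768).

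Aldh1a1 was high in both stem-like and fibroblast-like cells. Stem-like cells had 101.5 and 82.6 CPM (301 and 236 UMIs), and fibroblast-like cells had 69.3 and 88.2 CPM (29 and 41 UMIs). The pools of these 2 classes overlapped, and the difference, 0.21 ± 0.21 on the log2 scale (SE), was not called (edgeR, adjusted p = 0.520). Each class was above the mean of the others (adjusted p = 3.77e-58 for stem-like cells and adjusted p = 7.05e-32 for fibroblast-like cells, edgeR). Endothelial-like cells came next at 3.15 ± 0.22 CPM (n = 2), and the 5 hormone classes averaged 0.502 CPM. Aldh1a7, a close copy of Aldh1a1 on the same chromosome, had 7 UMIs in all. Reads shared between such copies cannot be told apart in the deposited counts, so both are uncertain to that extent.

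Stem-like cells held 80.1% of Aldh1a1 UMIs in the cells used and fibroblast-like cells 10.4%. A UMI was found in 67.2% ± 1.84 of stem-like cells and in 34.8% ± 4.19 of fibroblast-like cells (SD, n = 2 pools). At equal depth, 1000 UMIs per cell, the expected shares were 12.5% ± 1.28 in stem-like cells and 9.79% ± 2.04 in fibroblast-like cells. The unthinned gap therefore came with a difference in depth, a median of 9216 UMIs in stem-like cells and 3986 in fibroblast-like cells.

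Aldh1a3, the third enzyme, was near the limit of detection, with 29 UMIs in both libraries together. It did not pass the filter on low counts and has no test. Fibroblast-like cells had 4.78 and 4.30 CPM, and endothelial-like cells 1.005 and 3.28 CPM, from 4 and 5 UMIs. Stem-like cells had 2 UMIs in 2 of 357 cells.

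Within the stem-like class, Aldh1a1 was found alongside Aldh1a2. In pool 1, 71.4% of stem-like cells with an Aldh1a2 UMI also had an Aldh1a1 UMI, against 55.9% of those without. In pool 2 the shares were 67.3% with and 50.0% without. Cells with Aldh1a2 were deeper, at a median of 9891 UMIs with it and 5574 without in pool 1, and 9618 with it and 4126 without in pool 2. Without the normalisation between classes, Aldh1a1 stood at 136.4 CPM in cells with Aldh1a2 and 137.1 in cells without in pool 1, and at 113.1 with and 155.4 without in pool 2. The share of cells and the CPM pointed different ways, and the part of depth in the shares was not tested.

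**Figure D2:**
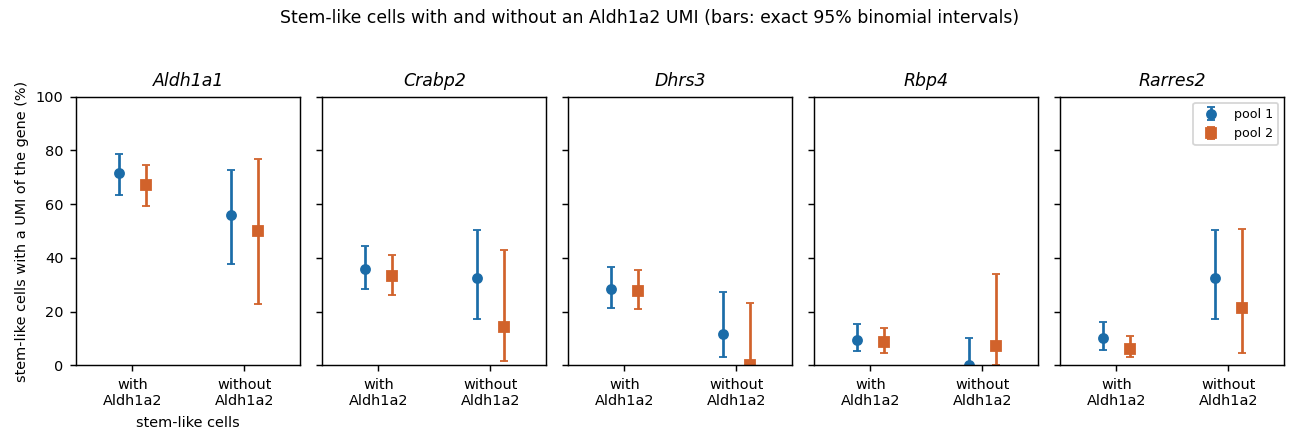
Share of stem-like cells with a UMI of some of the genes (panels, percent), in cells with an Aldh1a2 UMI on the left (147 in pool 1, 162 in pool 2) and without one on the right (34 and 14), by pool, with exact 95% binomial intervals. Rarres2 was found in 10.2 and 6.17% of cells with Aldh1a2 and in 32.4 and 21.4% of cells without, while the other genes were not found more often in cells without Aldh1a2 in either pool.

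Rarres2 ran the other way within this class. It was found in 10.2% of stem-like cells with Aldh1a2 against 32.4% of those without in pool 1, and in 6.17% against 21.4% in pool 2, although cells without Aldh1a2 were shallower. Its level was 10.1 unscaled CPM with Aldh1a2 and 88.5 without in pool 1, and 6.74 with and 25.9 without in pool 2. These rest on 20 and 20 UMIs in pool 1 and on 13 and 3 in pool 2, and the difference was not tested. Markers of fibroblasts moved with it. Stem-like cells without Aldh1a2 held 1.106 fibroblast marker UMIs per 10000 in pool 1 and 1.641 in pool 2. Those with Aldh1a2 held 0.556 and 0.462. Split by Rarres2 instead, stem-like cells with a UMI of it held 0.850, against 0.526 in stem-like cells without. Fibroblast-like cells themselves with Rarres2 held 166.0. The part of fibroblast RNA in this was not tested.

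Binding proteins for retinoic acid were split between classes. Crabp2, which carries retinoic acid towards its receptors, stood at 74.9 and 38.7 CPM in pituicyte-like cells (13 and 11 UMIs) and at 34.7 and 28.0 CPM in stem-like cells (103 and 80 UMIs). Every pituicyte-like sum lay above every stem-like one, but the difference of 0.79 ± 0.42 (log2, SE) was not called (edgeR, adjusted p = 0.201). Fibroblast-like cells, next at 6.57 ± 5.92 CPM, were below stem-like cells (edgeR, adjusted p = 0.0013). Endothelial-like and macrophage-like cells had no UMI, and the hormone classes averaged 0.397 CPM.

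Stem-like cells held 76.9% of the Crabp2 UMIs. A UMI was found in 38.6% ± 16.1 of pituicyte-like cells and in 33.6% ± 2.50 of stem-like cells (SD, n = 2 pools), against 2 of 3098 lactotrope-like cells, 0.065%. The median depth was 5170 UMIs in pituicyte-like, 9216 in stem-like and 8517 in lactotrope-like cells. At equal depth, 1000 UMIs per cell, the expected shares were 10.3% ± 5.11 in pituicyte-like, 4.35% ± 0.58 in stem-like and 0.013% ± 0.011 in lactotrope-like cells. Most stem-like cells with Crabp2 had 1 UMI of it, with 5 at most.

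Crabp1, the related protein, was found almost only in fibroblast-like cells, and there in few. Fibroblast-like cells had 86.0 and 28.0 CPM (36 and 13 UMIs), and no other class exceeded 0.31 CPM on average. The 49 UMIs came from 5 cells in each pool, 6.67% ± 0.81 of the class, and 18 of them from a single cell. The pools stood far apart and the test depends on the tool: edgeR called it (adjusted p = 1.4e-25) and DESeq2 did not (adjusted p = 0.244). Crabp1 passed the filter on low counts through this class, so the call adds nothing to the CPM. Stem-like cells had none in 357 cells, which allows a share of up to 0.840%. None of the 10 cells with Crabp1 had an Rbp4 UMI, against 31.3% of other fibroblast-like cells in pool 1 and 39.0% in pool 2, a count too small to read further.

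**Figure D3:**
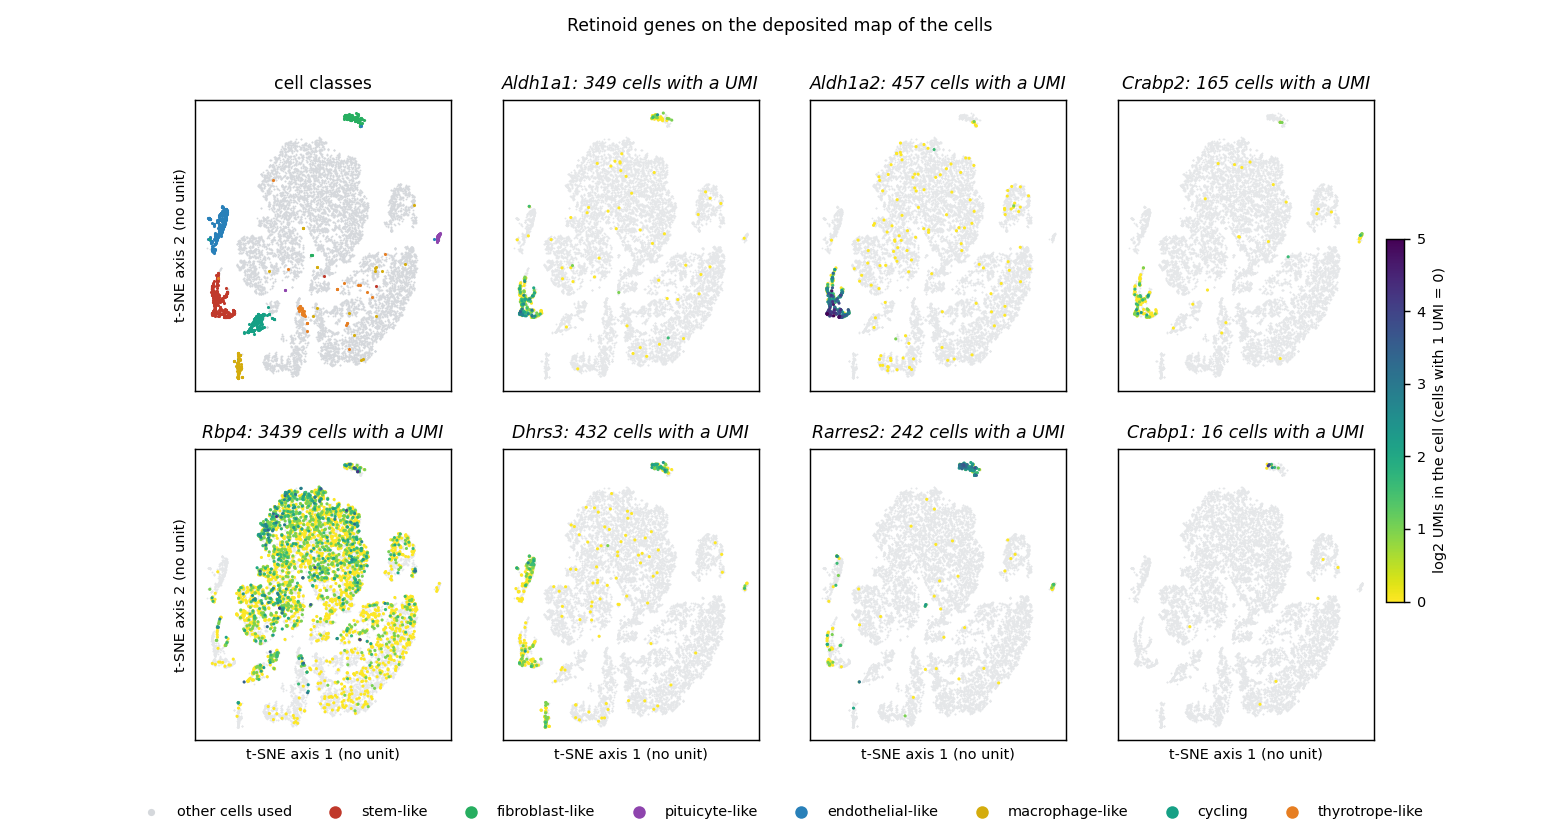
The authors' deposited t-SNE map of the cells (axes without unit), with classes in the first panel and, in the others, cells with at least 1 UMI of the named gene, coloured by log2 of their UMIs. Aldh1a1, Aldh1a2 and Crabp2 mark the stem-like cells, Aldh1a1 also fibroblast-like cells and Crabp2 also pituicyte-like cells. Crabp1 marks a few fibroblast-like cells. Rbp4 lies in some cells of every class, with 41.0% of somatotrope-like and 13.3% of lactotrope-like cells on average over the pools.

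Carriers and uptake of retinol had another pattern. Rbp4, the plasma carrier of retinol, was found in every class. Fibroblast-like cells had 172.0 and 176.5 CPM and somatotrope-like cells, which make growth hormone, had 90.5 and 105.8 CPM. Both sums of the first lay above both of the second, and the difference of 0.83 ± 0.19 (log2, SE) was called (edgeR, adjusted p = 0.000408). Somatotrope-like cells were in turn above the third class, macrophage-like cells at 35.3 ± 7.79 CPM (edgeR, adjusted p = 0.000346). Cycling, gonadotrope-like, melanotrope-like and lactotrope-like cells followed between 33.0 and 22.5 CPM, with no called difference between neighbours. Stem-like cells were at 6.41 and 9.45 CPM, below lactotrope-like cells (edgeR, adjusted p = 6e-06) and next to endothelial-like, corticotrope-like and pituicyte-like cells, at 7.81, 6.60 and 6.39 CPM.

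Somatotrope-like cells were 48.0% of the cells used and held 74.0% of the Rbp4 UMIs, 4282 in 6006 cells, at a median depth of 13574 UMIs. Over the 12 somatotrope-like clusters the level ran from 38.4 to 59.8 unscaled CPM, with a median of 54.2, and over the 6 lactotrope-like clusters from 14.2 to 21.4. No lactotrope-like cluster reached the lowest somatotrope-like one. Cells with an Rbp4 UMI had a Gh share close to that of cells without, a median of 62.2% against 61.9% in somatotrope-like cells.

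In fibroblast-like cells 50 of 151 cells had an Rbp4 UMI, and the 5 richest cells held 65.3% of the UMIs in pool 1 and 52.4% in pool 2. Several lower Rbp4 values also rested on few cells. In melanotrope-like cells, at 41.6 and 9.04 CPM, all 37 UMIs came from 8 of 238 cells, whose median depth was 12609 UMIs against 6517 in the others. In macrophage-like cells 13 of 151 cells held all 24 UMIs, and in pool 1 those with Rbp4 had a median of 56.9% of their UMIs from Gh, against 1.37% in those without. In stem-like cells of pool 1 those with Rbp4 had 16.4% Gh at a median depth of 27779 UMIs, against 1.05% at 8800 in those without, while in pool 2 the Gh medians were 0.788% with and 0.775% without. How far somatotrope RNA in the same droplet gave these values was not tested.

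Thyrotrope-like cells, which make thyrotropin and were outside the comparison, had 203.7 and 311.3 CPM of Rbp4 (20 and 67 UMIs). These CPM come from a separate fit with that class added, whose scaling differs from that of the 11 classes compared. Over both pools the level was 261.9 unscaled CPM, against 220.3 in fibroblast-like cells. In pool 1 alone it was 20 of 100736 UMIs, a lower share than the 72 of 338035 in fibroblast-like cells. The order of these 2 classes was not tested. The thyrotrope-like UMIs came from 9 of 10 cells in pool 1 and 20 of 33 in pool 2. Their Gh share was 0.967% in cells with Rbp4 and 1.07% in those without. No other member had more than 1 UMI in these cells.

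Stra6, the receptor that takes retinol up from its carrier, was low throughout, with 80 UMIs in all. Pituicyte-like cells had 11.5 and 21.1 CPM (2 and 6 UMIs in 5 cells) and fibroblast-like cells 2.39 and 25.8 CPM (1 and 12 UMIs). These classes overlapped with no called difference (0.24 ± 0.85 on the log2 scale, edgeR, adjusted p = 0.935), and each was above the mean of the others (adjusted p = 0.000101 for pituicyte-like cells and adjusted p = 1.7e-06 for fibroblast-like cells). Pool 2 gave nearly all of the fibroblast-like UMIs. Stra6 passed the filter on low counts through pituicyte-like and fibroblast-like cells, so calls of it as higher there add nothing to the CPM. Gonadotrope-like cells came next at 2.00 ± 0.15 CPM, below fibroblast-like cells (edgeR, adjusted p = 0.0018).

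Dhrs3, which reduces retinaldehyde back to retinol and so limits synthesis, was high outside the epithelium. Fibroblast-like cells had 169.7 and 187.2 CPM, macrophage-like cells 100.4 and 116.4 CPM, and endothelial-like cells 78.4 and 82.1 CPM. The pools of each class lay close together and the classes did not overlap. Fibroblast-like cells were above macrophage-like cells (0.71 ± 0.24, edgeR, adjusted p = 0.0168), macrophage-like and endothelial-like cells were not called apart (0.44 ± 0.24, edgeR, adjusted p = 0.190), and endothelial-like cells were above stem-like cells (1.94 ± 0.21, edgeR, adjusted p = 2.35e-14), all on the log2 scale with SE.

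Stem-like cells had 20.6 and 21.4 CPM of Dhrs3 and pituicyte-like cells 11.5 and 24.6 CPM, with overlapping pools (edgeR, adjusted p = 0.953). Every hormone class was at most at 2.37 CPM on average, and melanotrope-like cells had no UMI in 238 cells (called lower than the other classes, edgeR, adjusted p = 0.000462). A UMI was found in 54.1% ± 2.77 of fibroblast-like cells and 25.5% ± 0.11 of stem-like cells (SD, n = 2 pools), at median depths of 3986 and 9216 UMIs. At equal depth, 1000 UMIs per cell, the expected shares were 20.6% ± 0.85 in fibroblast-like and 2.83% ± 0.18 in stem-like cells.

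Rarres2 encodes chemerin, a secreted attractant of immune cells named for its induction by a synthetic retinoid. Fibroblast-like cells had 690.6 and 736.0 CPM (289 and 342 UMIs), 15.4-fold the mean of the next class, pituicyte-like cells at 57.6 and 35.1 CPM. The sums of the classes lay far apart (edgeR, adjusted p = 4.36e-20), and fibroblast-like cells held 80.1% of the UMIs. A UMI was found in 143 of 151 fibroblast-like cells, with a median of 4 in cells that had one.

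Endothelial-like cells had 21.1 and 14.0 CPM of Rarres2, above stem-like cells at 13.5 and 5.60 CPM (0.85 ± 0.36 on the log2 scale, edgeR, adjusted p = 0.0464). In endothelial-like cells, 15 of 291 cells held all 38 UMIs, and these cells had 12.02 fibroblast marker UMIs per 10000, against 0.241 in the rest. In cycling cells all 11 UMIs came from 2 cells, with 66.9 fibroblast marker UMIs per 10000 against 0.311 in the rest. The part of fibroblast RNA in these values was not tested. Macrophage-like and melanotrope-like cells had no UMI.

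Set against the mean of the 5 hormone classes, stem-like cells were higher in 5 of the 8 members tested, where 31.1% of the 12429 genes tested were called higher, and lower in 1, where 26.7% were. Aldh1a2 was 136-fold and Aldh1a1 183-fold the mean CPM of the hormone classes (adjusted p = 4.34e-77 and adjusted p = 1.1e-63, edgeR). Crabp2 was at 79.0-fold, Dhrs3 at 24.5-fold and Rarres2 at 19.0-fold (adjusted p = 7.98e-37, adjusted p = 1.85e-29 and adjusted p = 3.62e-14). Rbp4 averaged 7.93 CPM in stem-like cells, a lower level than the 35.7 CPM of the hormone classes (−1.64 ± 0.26 on the log2 scale, adjusted p = 1.72e-06). Crabp1 and Stra6 were not called.

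Each class was also compared with the mean of all others. Fibroblast-like cells were called higher in all 8 members tested, where 17.1% of all genes tested were. The median log2 difference was 5.47 for the members and −0.07 over all genes. Crabp1 passed the filter on low counts through this class, where 49 of its 55 UMIs lay, so its call is no separate support. DESeq2 did not call it. Aldh1a2 and Crabp2 had 6 UMIs each in fibroblast-like cells, in a comparison where 3 and 2 other classes had none. Stem-like cells were higher in 5 of 8, against 29.3% of all genes, and lower in Rbp4, against 17.2%. Pituicyte-like cells were higher in 4 of 8 (Crabp2, Dhrs3, Rarres2 and Stra6), against 8.99% of all genes. Stra6 passed the filter on low counts through pituicyte-like and fibroblast-like cells, so its call in either class is no separate support. Endothelial-like cells were higher in Dhrs3 and Rarres2, against 26.1%, macrophage-like cells in Dhrs3, against 15%, and somatotrope-like cells in Rbp4, against 32.4%. Rbp4 was lower in endothelial-like cells, against 18.4% of all genes, and in corticotrope-like cells, against 11.9%, and Dhrs3 in melanotrope-like cells, against 9.3%. No member was called in cycling or lactotrope-like cells, where 33% and 44.7% of all genes were called in either direction. Because several classes had no UMI of a member, fitted log2 differences against the mean of the classes depend on the prior count, and ratios of mean CPM are given for single genes.

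**Figure D4:**
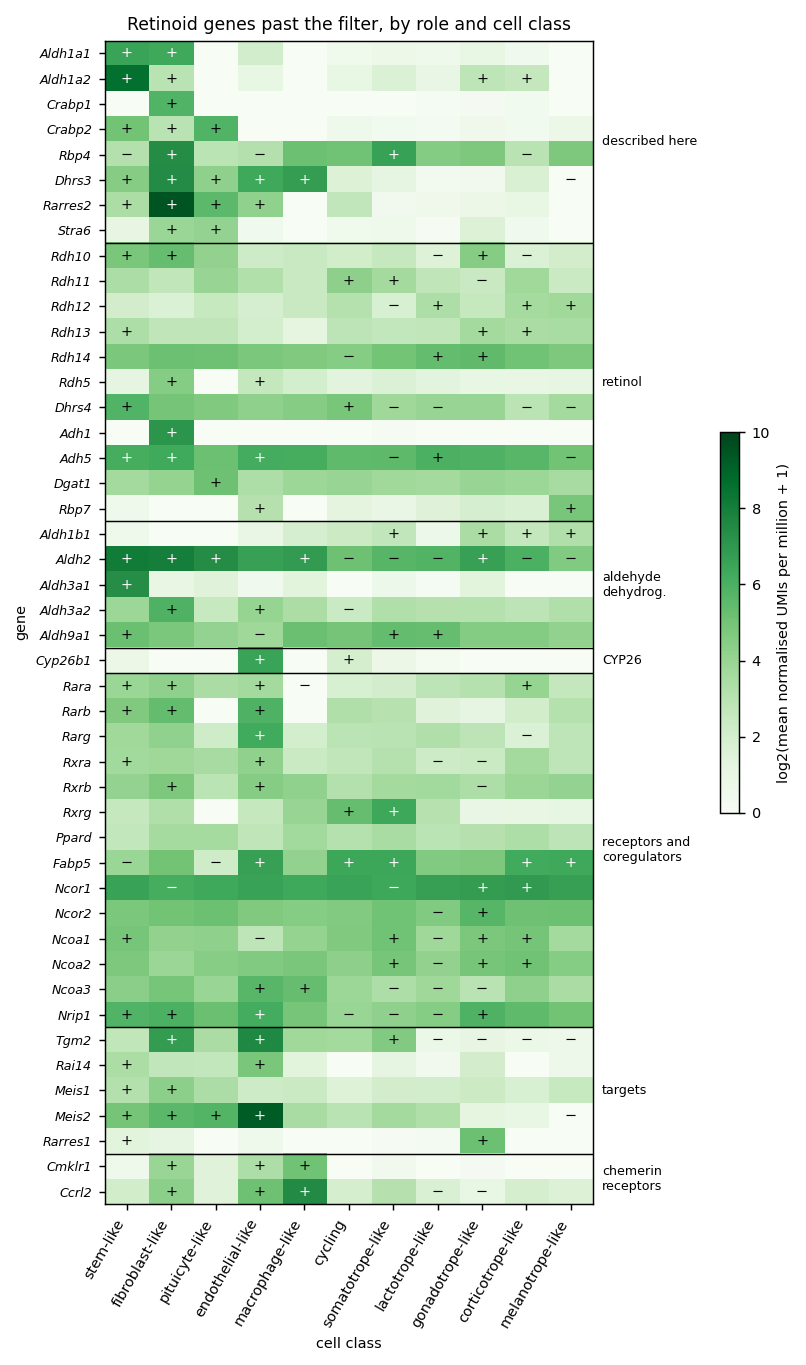
Mean level of 46 retinoid genes past the filter (rows, grouped by role) in 11 cell classes (columns), as log2 of CPM plus 1, with plus or minus where the class was called higher or lower than the mean of the others. Rarb and Cyp26b1, also targets of retinoic acid, are drawn under their first role. Plus signs for the genes in the top block gather in stem-like and fibroblast-like cells. Those for receptors and coregulators lie most often in endothelial-like cells and also in hormone classes. Those for targets lie mainly in stem-like, endothelial-like and fibroblast-like cells.

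Of 63 other retinoid genes, 38 passed the filter. They were highest most often in endothelial-like cells (10 genes), fibroblast-like cells (8 genes) and gonadotrope-like cells (5 genes). Macrophage-like, somatotrope-like and stem-like cells had 3 each. The share of all genes that were highest in each class was not counted, so these numbers are a description only. The retinol side, 11 of 27 genes past the filter, held 4 genes higher in stem-like cells and 4 in fibroblast-like cells, where 29.3% and 17.1% of all genes tested were called higher. Gonadotrope-like and endothelial-like cells had 3 genes higher each, where 26.4% and 26.1% of all genes were. Lactotrope-like cells had 3 higher and 2 lower, where 44.7% of all genes were called in either direction. Rdh10, which makes retinaldehyde from retinol, stood at 45.4 and 32.3 CPM in fibroblast-like cells, and at 33.1 and 21.01 CPM in stem-like cells. It was called higher in both classes and in gonadotrope-like cells, against the mean of the others. Adh1, an alcohol dehydrogenase that can oxidise retinol, was at 121.9 and 148.5 CPM in fibroblast-like cells and at 0 in stem-like cells.

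Among other aldehyde dehydrogenases, 5 of 8 passed the filter. Of these, 3 (Aldh2, Aldh3a1 and Aldh9a1) were higher in stem-like cells, where 29.3% of all genes tested were. Aldh2 was also called higher in gonadotrope-like, fibroblast-like, macrophage-like and pituicyte-like cells, and Aldh9a1 in somatotrope-like and lactotrope-like cells. Aldh3a1 stood at 176.1 and 156.8 CPM in stem-like cells and at 1.76 CPM on average in pituicyte-like and 1.08 CPM in fibroblast-like cells. For breakdown, only Cyp26b1 of 3 CYP26 genes passed the filter. It stood at 91.5 and 94.4 CPM in endothelial-like cells, against 0.675 and 0.700 CPM in stem-like cells, and had no UMI in fibroblast-like, macrophage-like or pituicyte-like cells.

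All 14 receptors and coregulators passed the filter, with 8 higher in endothelial-like cells, 5 in stem-like and 4 in fibroblast-like cells. Of all genes tested, 26.1%, 29.3% and 17.1% were called higher in those classes. Hormone classes had such calls too, with 5 higher in gonadotrope-like, 5 in corticotrope-like and 4 in somatotrope-like cells, where 26.4%, 21.7% and 32.4% of all genes were. Rarb, a nuclear receptor whose promoter repeat is printed above, stood at 45.2 and 73.1 CPM in endothelial-like cells, at 45.4 and 34.4 CPM in fibroblast-like cells and at 24.6 and 24.9 CPM in stem-like cells, and was called in each. Macrophage-like and pituicyte-like cells had no Rarb UMI. Rarg, another receptor, stood at 77.4 and 69.8 CPM in endothelial-like cells against 12.1 and 12.3 CPM in stem-like cells, and Rxrg, one of the RXR partner receptors, at 88.4 and 74.7 CPM in somatotrope-like cells.

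Of 11 known targets, 7 passed the filter. All 7 were called higher in stem-like cells against the mean log level of the hormone classes, as were 31.1% of all genes. The median log2 difference was 2.88 against 0.02 over all genes. Being above that mean is not being above each class, and Rarres1 was higher in gonadotrope-like than in stem-like cells. Cyp26b1 counted among the 7 at the low stem-like level given above. Neither Cyp26b1 nor Tgm2 was called in stem-like cells against the mean of all other classes. Against the mean of the other classes, 5 were higher in endothelial-like cells, 5 in stem-like cells and 4 in fibroblast-like cells, where 26.1%, 29.3% and 17.1% of all genes tested were. Tgm2, a transglutaminase, stood at 191.0 and 191.3 CPM in endothelial-like cells and at 7.42 and 3.85 CPM in stem-like cells. Meis2, a homeodomain factor, stood at 611.1 and 582.1 CPM in endothelial-like cells and at 21.6 and 37.5 CPM in stem-like cells. Rarres1 was highest in gonadotrope-like cells (34.7 CPM on average, edgeR, adjusted p = 1.54e-36). None of the 7 was highest in stem-like cells: Cyp26b1, Rarb, Tgm2, Rai14 and Meis2 had their highest mean in endothelial-like, Meis1 in fibroblast-like and Rarres1 in gonadotrope-like cells.

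Of 3 chemerin receptors, Cmklr1 and Ccrl2 passed the filter. Ccrl2, which binds chemerin without signalling, stood at 134.9 and 227.4 CPM in macrophage-like cells, and Cmklr1, the signalling receptor, at 25.1 and 40.6 CPM there. Both were called higher in macrophage-like, endothelial-like and fibroblast-like cells (edgeR, adjusted p = 1.16e-40 for Ccrl2 and adjusted p = 3.04e-14 for Cmklr1 in macrophage-like cells).

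The genes with the most similar class profile were sought among 4773 candidates by Pearson's r of log2(CPM + 1) over the 11 class means, as a description. The closest to Aldh1a2 was Maob (r = 0.977), to Aldh1a1 Fibin (r = 0.972) and to Crabp2 Mlc1 (r = 0.972). The closest to Crabp1 was Adh1 (r = 0.997), to Rarres2 Abi3bp (r = 0.973), to Dhrs3 Necap2 (r = 0.970) and to Rbp4 Tmem45a (r = 0.898). Classes in such a profile come from the same 2 libraries and differ in depth.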

How the data were processed

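Dispersed pituitary cells were sequenced in 2 libraries. The authors deposited raw UMI counts per gene and barcode, made with Cell Ranger and STAR on mm10 per the submitters' processing notes (no version is given there), and t-SNE coordinates, a score with no unit, deposited for the same barcodes. The number at the end of a barcode was taken as the pool. A minimum of 500 UMIs and 250 genes and a maximum of 20% mitochondrial UMIs kept 6505 of 6546 and 7060 of 7117 barcodes. Scrublet's own threshold called 0 and 0 doublets, so the 7.6% of cells with the highest scores (the labels' multiplet rate) were removed, 494 and 537. Cells were clustered (scanpy 1.11.5, leidenalg 0.10.2, 12 components, 15 neighbours, Leiden resolution 1) on marker genes and named by the mean relative level of each class's markers, a rule set after seeing the data, as were the limits for unnamed clusters.

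UMIs were summed per class and library for the 11 classes with at least 20 cells in each, and tested with edgeR 4.0.16 (quasi-likelihood, robust, TMM, filterByExpr, library as a block) and Benjamini-Hochberg adjustment at 0.05 over all 12429 genes tested, in 22 columns of 107386 to 41320841 UMIs with 10 residual degrees of freedom. Pairs of classes were 55. CPM are UMIs scaled to a TMM-normalised total of 1000000, and unscaled CPM use the plain total. Thinned shares are exact expectations over all draws of 1000 UMIs from each cell. P-values rest on the spread between 2 pools only, since cells are not replicates. That spread was estimated over all 11 classes together and moderated across genes, not within single classes. The pools are the same in every class, so the pairing comes from the design. The fit was tested on simulated data. The members, pathway lists and markers were chosen with earlier results of these data known. One gene of the pathway lists is not reported here. Named genes are the members, genes of the role lists and, for each member with at least 50 CPM in a class, the genes with the most similar profile. R was 4.3.3, DESeq2 1.42.0 and Python 3.11.15. Of 28693 gene identifiers, 28416 matched GENCODE M21.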

Additional observations from a re-analysis of the deposited data

Results flagged for a closer look

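Members also had UMIs in cells outside the classes compared. Rbp4 had 87 UMIs in 43 thyrotrope-like cells, against a limit of 3 for a count of 0. In the 946 unnamed cells Rbp4 had 386 UMIs, Aldh1a2 15, Aldh1a1 9 and Dhrs3 7. Over the 5 unnamed clusters Rbp4 ran from 34.1 to 68.1 CPM of the plain total, with a median of 42.8. Groups of 2 pools are too small to look for a sample apart.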

How the results depend on the processing

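With DESeq2, Crabp1 in fibroblast-like cells stood at 8.33 on the log2 scale and lost its call (adjusted p = 0.2443), against 9.82 with edgeR, and the cause was not tested. The other 75 tested alternatives for members in their highest class, all 78 for stem-like cells against the hormone classes and all 118 counts of genes kept direction and call, or stayed within 1.5 times. They covered DESeq2, totals without hormone genes, no count filter, doublets kept, Leiden resolutions 0.5 and 2, variable genes, cells rich in Gh left out, no replicate block and a thyrotrope-like class added, the last chosen after seeing the data. Pituicyte-like cells had no class of their own at resolution 0.5 and fell under the minimum of 20 cells per pool without cells rich in Gh, so neither setting gave values for Crabp2 and Stra6 in them. Without the replicate block, for example, Aldh1a1 in stem-like cells stood at 7.63 against 7.61 with it, and no call changed. With a single pool, values with no test, in each member's highest class, ran from 7.84 to 7.97 for Aldh1a1, 8.96 to 10.29 for Aldh1a2, 9.13 to 10.71 for Crabp1, 7.16 to 7.43 for Crabp2, 3.26 to 3.34 for Rbp4, 5.70 to 6.59 for Dhrs3, 8.89 to 9.81 for Rarres2 and 5.47 to 6.15 for Stra6. Of these 16 values, 8 moved by more than the SD between the pools and none changed sign. For stem-like cells against the hormone classes, Rbp4 ran from −1.95 to −1.21 with a single pool. DESeq2's scaling moved the median of all genes by −0.134 for lactotrope-like and 0.119 for pituicyte-like cells at most. Clusters of variable genes gave the same class for 95.953% of cells named in both. Depth limits Aldh1a3, Stra6 and Crabp1, which had 29, 80 and 56 UMIs.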
